A study of Mus with 9 samples.

Results

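The T, B and plasma cell genes described here are 9 genes that mark lymphocytes, chosen by name from the 54532 genes of the kidney table: the T cell receptor subunits Cd3d, Cd3e and Cd3g, the co-receptors Cd4 and Cd8a, the cytotoxic granule gene Nkg7, the B cell genes Cd79a and Ms4a1, and the plasma cell gene Jchain. All 9 passed the filter on low counts, as did 15902 of the 54532 genes. The kidneys came from male C57BL/6 mice, and mice of all 3 groups had 1 kidney removed at 18 months of age. Mice of the 18 mo group were killed 1 week after that surgery and got no injections. Mice of the 21 mo group got saline and mice of the 21 mo/O304 group got O304, an activator of the energy sensor kinase AMPK, at 10 mg/kg/day, both by daily intraperitoneal injection for 12 weeks. Each group had 3 mice with 1 library each. The 18 mo mice differ from the rest in age, in time since the surgery and in having no injections, which cannot be told apart, whereas 21 mo/O304 and 21 mo mice differ in the agent injected.

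The T cell receptor recognizes peptide on the surface of other cells, and it signals through the CD3 chains, which every mature T cell carries. CD4 and CD8 are the co-receptors of helper and of killer T cells, and NKG7 sits in the granules with which killer T cells and natural killer cells kill their targets. B cells signal through the antibody on their surface with CD79a and CD79b, carry CD20 (the product of Ms4a1), and mature into plasma cells, which secrete antibody and make the J chain that joins IgM and IgA into polymers. In ageing and injured kidneys, lymphocytes are known to gather around vessels and tubules.

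The libraries held between 15636378 and 18396725 counts, so that 1 count equalled 0.0458 to 0.0669 CPM (counts scaled to a common library size, normalized by TMM). The libraries were kidney by their markers, but not equally so. The summed level of 8 proximal tubule markers was 11900 CPM or more in 7 libraries, and it was 5440 CPM in 21 mo replicate 2 and 1190 CPM in 21 mo replicate 3. That last library also had the highest sum of 12 macrophage markers, at 1700 CPM against 263 to 585 CPM in the other libraries. The biological coefficient of variation was 44% among the 21 mo libraries, 18% among the 18 mo libraries and 20.6% among the 21 mo/O304 libraries.

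The 3 CD3 genes were low in every kidney and did not pass the test in any comparison. Cd3d, the delta chain, was at 2.66, 1.48 and 1.98 CPM in the 18 mo libraries, at 6.42, 2.39 and 3.25 CPM in the 21 mo libraries and at 1.45, 6.2 and 3.37 CPM in the 21 mo/O304 libraries (replicates 1, 2 and 3 in this order here and below). Cd3g, the gamma chain, was at 2.17, 1.23 and 2.66 CPM in 18 mo, at 5.55, 1.36 and 2.79 CPM in 21 mo and at 2.15, 6.85 and 2.74 CPM in 21 mo/O304. Both genes were highest in the same pair of libraries, 21 mo replicate 1 and 21 mo/O304 replicate 2, and the other 7 libraries of the 3 groups overlapped. Cd3e, the epsilon chain, was at 0.743, 0.493 and 1.07 CPM, at 1.74, 0.852 and 1.01 CPM and at 0.582, 2.32 and 0.7 CPM in the same order of groups, and it was highest in that pair too. Its counts were few, from 8 to 39 per library.

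**Figure D1:**
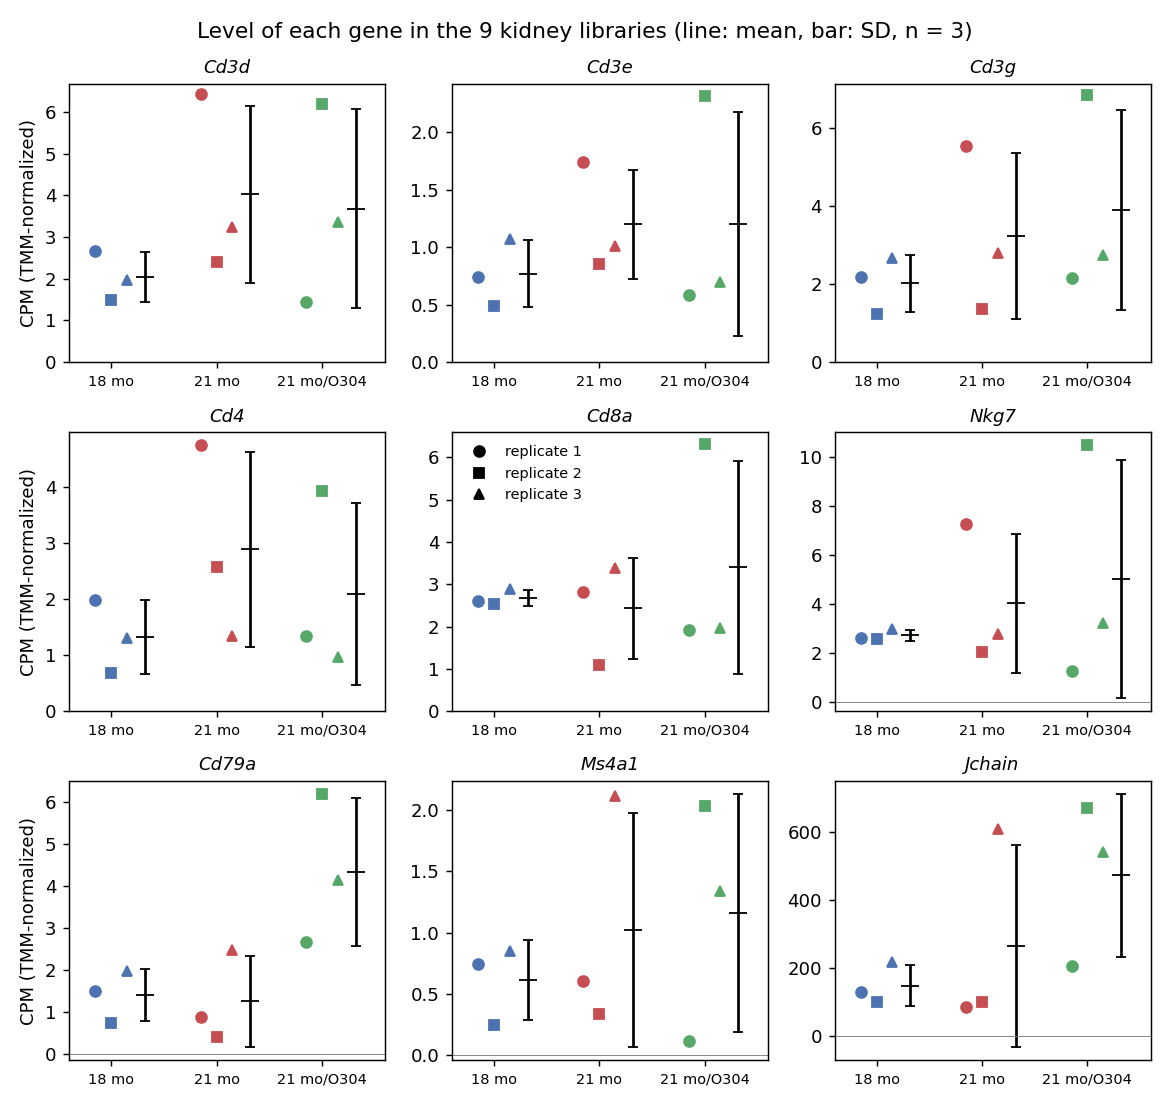
Level of each of the 9 genes (y axis, TMM-normalized CPM, linear scale, a different range per gene) in the 3 libraries of each group (x axis), with symbols for the replicate numbers and the mean and SD of the group (n = 3) beside them. For Cd79a all 3 of the 21 mo/O304 libraries lie above all 6 other libraries, whereas for the other 8 genes the groups overlap. Over all genes, 21.3% did not overlap between 21 mo/O304 and 21 mo and 26.5% between 21 mo/O304 and 18 mo.

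The 3 CD3 genes lie side by side on chromosome 9, in 40056 bases of GRCm38. Cd3g (chr9:44969572-44980431, minus strand) and Cd3d (chr9:44981786-44987339, plus strand) point away from each other with 1354 bases between them, and Cd3e (chr9:44998740-45009627, minus strand) follows after a further 11400 bases. Cd3e overlaps the genes Gm48719 and Gm48720, which had no counts in any library. The mean of Cd3d was 2.04 ± 0.595 CPM (SD, n = 3) in 18 mo, 4.02 ± 2.12 CPM in 21 mo and 3.68 ± 2.39 CPM in 21 mo/O304, so that the SD of each older group was larger than any difference between the group means. For 21 mo against 18 mo the log2 fold change was 0.97 for Cd3d (SE 0.559, edgeR adjusted p = 0.294), 0.62 for Cd3e and 0.67 for Cd3g. With O304 against 21 mo it was −0.12 for Cd3d (95% interval −1.36 to 1.11), 0.01 for Cd3e (−1.33 to 1.35) and 0.28 for Cd3g (−1.06 to 1.62). These intervals reach past both a doubling and its inverse, so a change of that size with O304 was not detectable with 3 mice. Without 21 mo/O304 replicate 2 Cd3e and Cd3g turned to −0.905 and −0.414, and without 21 mo replicate 1 Cd3d turned to 0.368. In such whole-tissue libraries fewer cells of a type and less RNA per cell cannot be told apart.

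The co-receptors did not follow the CD3 genes equally. Cd4 (chr6:124864692-124888221), which marks helper T cells and is also made by some myeloid cells, was at 1.98, 0.678 and 1.3 CPM in 18 mo, at 4.75, 2.56 and 1.33 CPM in 21 mo and at 1.34, 3.93 and 0.955 CPM in 21 mo/O304. Like the CD3 genes it was highest in 21 mo replicate 1 and 21 mo/O304 replicate 2. Cd8a (chr6:71373427-71379173), of killer T cells, was at 2.6, 2.53 and 2.89 CPM in 18 mo, at 2.81, 1.08 and 3.39 CPM in 21 mo and at 1.92, 6.32 and 1.97 CPM in 21 mo/O304. It was high in 21 mo/O304 replicate 2 alone, and its 18 mo libraries were close together (2.67 ± 0.189 CPM). Cd4 had a log2 fold change of 1.11 for 21 mo against 18 mo (SE 0.67, edgeR adjusted p = 0.314), the largest of the 9 genes in that comparison, and Cd8a had −0.14 (SE 0.553, edgeR adjusted p = 0.894). Between 21 mo/O304 and 21 mo it was −0.46 for Cd4 and 0.48 for Cd8a, with edgeR adjusted p of 0.689 and 0.61. Without 21 mo replicate 1 Cd4 turned to 0.0947, and without 21 mo/O304 replicate 2 Cd8a turned to −0.332. Between 21 mo and 18 mo Cd8a turned to 0.201 without 21 mo replicate 2.

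The ratio of Cd8a to Cd4 counts showed this difference within each library, where depth cancels. It was 1.31, 3.73 and 2.22 in 18 mo, 0.592, 0.422 and 2.55 in 21 mo and 1.43, 1.61 and 2.07 in 21 mo/O304. The 2 lowest ratios were both of the 21 mo group, and the remaining library of that group had a ratio inside the range of 18 mo. As a ratio of counts it is not per length and serves only to compare libraries. The groups overlapped between 21 mo and 18 mo and between 21 mo/O304 and 21 mo, and the ratio was not tested. Of the counts behind it, the lowest were 11 for Cd4 in 18 mo replicate 2 (exact Poisson 95% interval 5.49 to 19.7) and 15 in 21 mo/O304 replicate 3. These intervals and those on other single counts cover counting error only.

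Nkg7 (chr7:43437073-43438249) was highest in the same pair of libraries as the CD3 genes. It was at 2.6, 2.59 and 3 CPM in 18 mo, at 7.29, 2.05 and 2.79 CPM in 21 mo and at 1.28, 10.5 and 3.25 CPM in 21 mo/O304. Within 21 mo/O304 the highest library was 8.25 times the lowest, and these 2 libraries were also the highest and the lowest of all 9. Its log2 fold change was 0.56 for 21 mo against 18 mo (SE 0.721, edgeR adjusted p = 0.644) and 0.32 for 21 mo/O304 against 21 mo (SE 0.71, edgeR adjusted p = 0.803). Leaving out 21 mo/O304 replicate 2 turned the latter to −0.851, and leaving out 21 mo replicate 1 turned the former to −0.153.

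Of the 9 genes, only Cd79a had 21 mo/O304 libraries apart from those of each other group, and they were higher. Over all genes, 21.3% did not overlap between 21 mo/O304 and 21 mo and 26.5% between 21 mo/O304 and 18 mo. A single gene of 9 is thus not above the background, and the 18 mo and 21 mo libraries of Cd79a overlapped. Cd79a (chr7:24897381-24902197), the signalling chain of the B cell receptor, was at 1.49, 0.739 and 1.98 CPM in 18 mo and at 0.87, 0.398 and 2.47 CPM in 21 mo. In 21 mo/O304 it was at 2.68, 6.2 and 4.14 CPM, above all 3 libraries of each other group, though 21 mo/O304 replicate 1 at 2.68 CPM was only just above 21 mo replicate 3 at 2.47 CPM. The counts behind these 2 values were 46 (exact Poisson 95% interval 33.7 to 61.4) and 54 (40.6 to 70.5), so their order is within counting error. The mean was 1.4 ± 0.625 CPM in 18 mo, 1.25 ± 1.09 CPM in 21 mo and 4.34 ± 1.77 CPM in 21 mo/O304.

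The log2 fold change of Cd79a was 1.77 for 21 mo/O304 against 21 mo (3.41-fold, SE 0.648, 95% interval 0.305 to 3.24), with an unadjusted p of 0.0231 and an edgeR adjusted p of 0.198. Against 18 mo it was 1.62 (3.08-fold, SE 0.646, 95% interval 0.159 to 3.08), with an unadjusted p of 0.0334 and an edgeR adjusted p of 0.477. Neither passed the threshold of 0.05 after adjustment over the 15902 genes. For 21 mo against 18 mo it was −0.15 (SE 0.654, edgeR adjusted p = 0.902), and it turned to 0.201 without 18 mo replicate 3, to 0.068 without 21 mo replicate 1 and to 0.252 without 21 mo replicate 2. The 2 comparisons of 21 mo/O304 share its 3 libraries. Without 21 mo/O304 replicate 2, the highest library, the log2 fold change against 21 mo was 1.41 (unadjusted p = 0.0861), and without 21 mo replicate 3 it was 2.79 (unadjusted p = 0.0013 and edgeR adjusted p = 0.223). Markers of other cells moved with these libraries: the summed adipocyte markers were at 149, 10.1 and 123 CPM in 21 mo/O304 against 0.123 to 8.6 CPM in the other 6 libraries, and their part in the Cd79a result was not tested. Both Cd79a and the adipocyte sum were higher in all 3 libraries of 21 mo/O304 than in the other 6 libraries. Within 21 mo/O304, replicate 2 had the highest Cd79a and the lowest adipocyte sum.

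Ms4a1 did not follow Cd79a by group. Ms4a1 (chr19:11249675-11266241), which encodes CD20 of mature B cells, was at 0.743, 0.246 and 0.849 CPM in 18 mo, at 0.602, 0.341 and 2.11 CPM in 21 mo and at 0.116, 2.03 and 1.34 CPM in 21 mo/O304. In 21 mo/O304 replicate 1 it had 2 counts (exact Poisson 95% interval 0.242 to 7.22), the lowest of all libraries, where Cd79a had 46. The highest library was 18.1 times the lowest, the widest range of the 9 genes, at counts of 2 to 46. Its fitted log2 fold change was 0.75 for 21 mo against 18 mo (SE 0.95) and 0.16 for 21 mo/O304 against 21 mo (SE 0.918), with edgeR adjusted p of 0.639 and 0.93. These turned to −0.407 without 21 mo replicate 3 and to −0.532 without 21 mo/O304 replicate 2. Ms4a1 overlaps 4930526L06Rik on the other strand, which had at most 2 counts.

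Jchain was abundant, and it differed widely between mice of the same group. Jchain (chr5:88519809-88527891) was at 131, 99.4 and 217 CPM in 18 mo, at 85.1, 102 and 608 CPM in 21 mo and at 207, 670 and 541 CPM in 21 mo/O304. The values of 21 mo replicates 1 and 2 were within or below the range of 18 mo, while replicate 3 was among the 3 highest libraries. The mean was 149 ± 60.7 CPM, 265 ± 297 CPM and 473 ± 239 CPM in the 3 groups. The log2 fold change was 0.83 for 21 mo against 18 mo (SE 0.751, edgeR adjusted p = 0.497), 0.83 for 21 mo/O304 against 21 mo (SE 0.751, edgeR adjusted p = 0.519) and 1.67 for 21 mo/O304 against 18 mo (SE 0.766, unadjusted p = 0.0575, edgeR adjusted p = 0.532). Without 21 mo replicate 3 the first turned to −0.685 and the second rose to 2.34, with an edgeR adjusted p of 0.423 and 0.223. At 1272 to 13269 counts per library, counting error is small beside the spread between mice.

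Taking the 9 genes as a list, 0 had an edgeR adjusted p under 0.05 in any of the 3 comparisons. Among all 15902 genes, edgeR called 3 genes (0.0189%) for 21 mo against 18 mo and 0% in each comparison of 21 mo/O304. DESeq2 also called 0 of the list in each (Ms4a1 had no adjusted p in 21 mo/O304 against 18 mo), where its share of all genes with an adjusted p was 12.3%, 6.07% and 0.869%. With sample quality weights, limma voom called 2 of the 9 between 21 mo and 18 mo, 4 between 21 mo/O304 and 21 mo, and 0 between 21 mo/O304 and 18 mo, where it called 52.9%, 41.1% and 2.61% of all genes, so these counts are below or near its background. At an unadjusted p under 0.05 the list had 0, 1 and 1 genes, and the 1 gene was Cd79a in both. The share of all genes at that level was 26.1%, 20.7% and 9.66%, so a single gene of 9 is below or near the background. Genes whose groups did not overlap were 0, 1 and 1 of the 9, against 28.8%, 21.3% and 26.5% of all genes.

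The direction of the fitted values leaned upwards. In 21 mo against 18 mo 7 of 9 were higher and the median log2 fold change was 0.67, beside a median over all genes of 0.03 and 52.7% higher. In 21 mo/O304 against 21 mo 7 of 9 were higher, with a median of 0.28 beside −0.02 and 48.2% of all genes. In 21 mo/O304 against 18 mo all 9 were higher, with a median of 0.88 beside 0.00 and 50.4% of all genes. These genes share their high libraries, so their directions are not independent of each other, and the comparisons share groups.

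**Figure D2:**
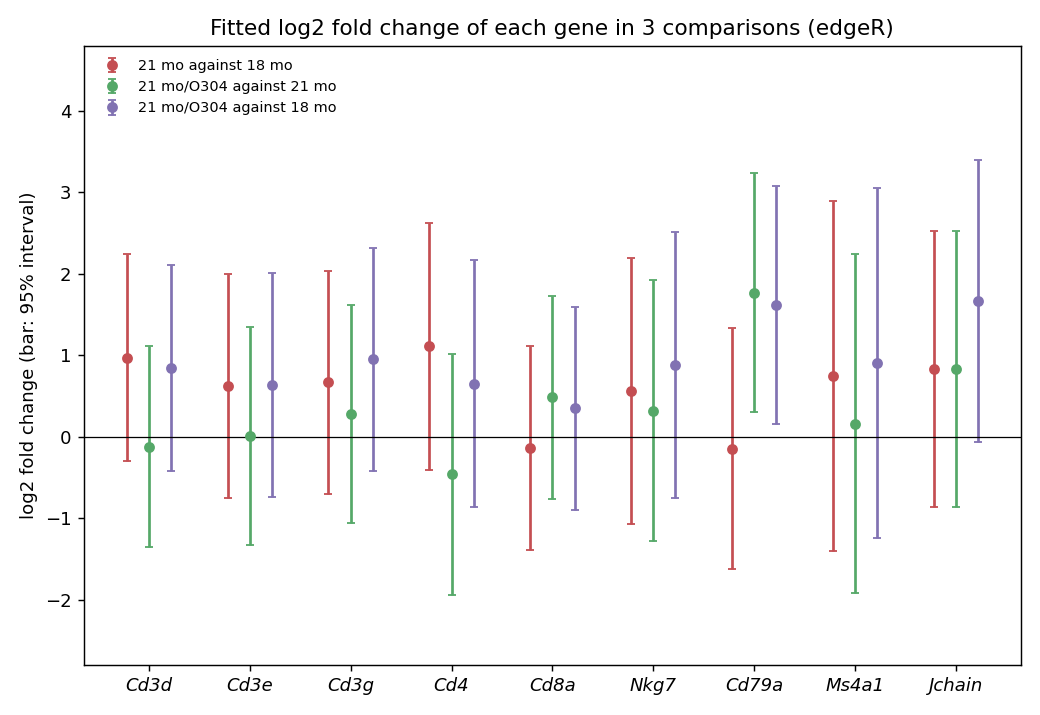
Fitted log2 fold change (y axis) of each of the 9 genes (x axis) in 3 comparisons (colours), with 95% intervals from edgeR. The intervals of Cd79a in both comparisons of 21 mo/O304 lie above 0 before adjustment over all genes, and all other intervals include 0.

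The summed CD3 genes and the summed Cd79a and Ms4a1 were highest in different sets of libraries, with 1 library in common. These sets crossed the groups. The summed level of Cd3d, Cd3e and Cd3g was 5.57, 3.2 and 5.71 CPM in 18 mo, 13.7, 4.6 and 7.05 CPM in 21 mo and 4.19, 15.4 and 6.81 CPM in 21 mo/O304, with 21 mo replicate 1 and 21 mo/O304 replicate 2 standing above the others. The sum of Cd79a and Ms4a1 was 2.23, 0.986 and 2.83 CPM, 1.47, 0.739 and 4.58 CPM, and 2.79, 8.22 and 5.48 CPM in the same order. It was highest in 21 mo/O304 replicates 2 and 3 and 21 mo replicate 3, the same 3 libraries in which Jchain was at 541 CPM or more. One library was therefore high in both sums (21 mo/O304 replicate 2). In 21 mo replicate 1 the CD3 sum was high, and Cd79a and Ms4a1 summed to 1.47 CPM. Other B cell genes did not share this contrast. Summed over 18 further B cell genes, the level was 39.1 CPM in 21 mo replicate 1 and 51.4 and 39 CPM in 21 mo/O304 replicates 2 and 3. That sum was highest in 21 mo replicate 3, at 78.7 CPM. The ratio of the CD3 sum to the sum of Cd79a and Ms4a1 ranged from 1.24 to 9.32. It was 2.5, 3.25 and 2.02 in 18 mo, 9.32, 6.23 and 1.54 in 21 mo and 1.5, 1.87 and 1.24 in 21 mo/O304, so that all 3 libraries with O304 were below all 3 of 18 mo and overlapped with 21 mo. This ratio was chosen after its values were seen and was not tested.

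**Figure D3:**
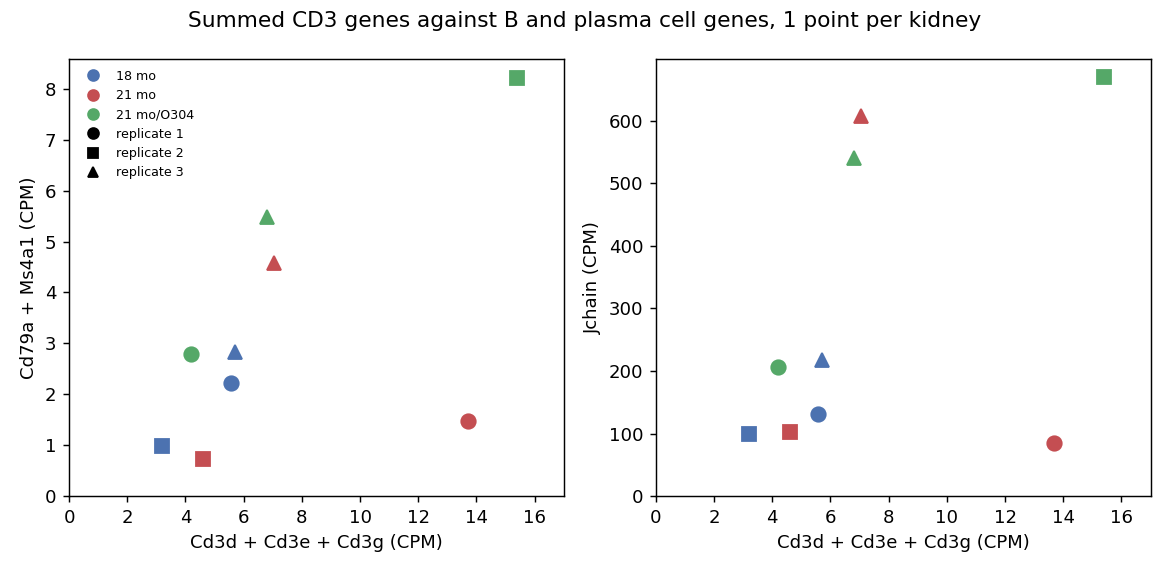
Summed CPM of Cd3d, Cd3e and Cd3g (x axis of both panels) against the summed CPM of Cd79a and Ms4a1 (left y axis) and the CPM of Jchain (right y axis), 1 point per kidney, coloured by group. The library of 21 mo replicate 1 lies far right and low, at 13.7 and 1.47 CPM, and that of 21 mo/O304 replicate 2 lies far right and high, at 15.4 and 8.22 CPM.

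Pearson's r of log2 CPM over the 9 libraries, given as a description, separated the T and cytotoxic genes from the B and plasma cell genes only in part. Among the 15 pairs of Cd3d, Cd3e, Cd3g, Cd4, Cd8a and Nkg7, r ran from 0.271 (Cd4 with Cd8a) to 0.891 (Cd3e with Cd3g), with a median of 0.769. Nkg7 had an r of 0.888 with Cd3d and 0.881 with Cd3e. Within Cd79a, Ms4a1 and Jchain the 3 values were 0.588, 0.748 and 0.885, the highest being that of Cd79a with Jchain. Between the 2 groups of genes the median of 18 pairs was 0.381, the lowest was −0.111, of Cd4 with Jchain, and the highest was 0.67, of Cd3d with Ms4a1. Ms4a1 had its highest r with Jchain (0.748), and a higher r with Cd3d, Cd3e, Cd3g, Cd8a and Nkg7 (0.595 to 0.67) than with Cd79a (0.588). Cd8a had its highest r with Cd3g (0.733), Nkg7 (0.728) and Cd3e (0.651). Its r with Cd79a (0.634) and Ms4a1 (0.636) was below these and above that with Cd3d (0.53) or Cd4 (0.271). All pairs share the same 9 libraries, their depth and their scaling, and the low counts of Ms4a1 and Cd3e add counting noise to any r they enter.

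**Figure D4:**
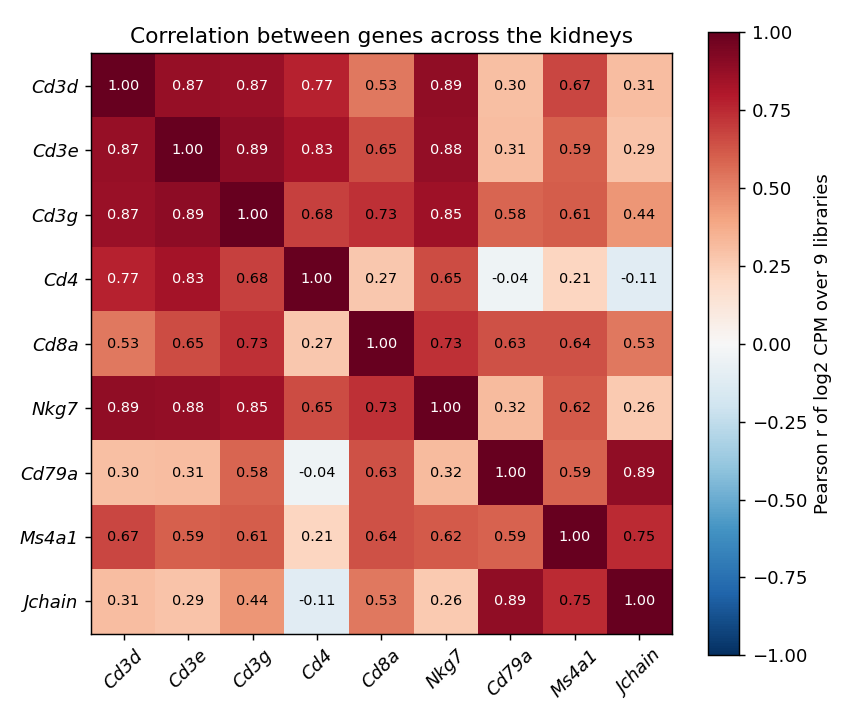
Pearson's r between the log2 CPM of each pair of the 9 genes over the 9 libraries (both axes list the genes, and colour and number give r). The CD3 genes and Nkg7 form a block between 0.85 and 0.89, Cd79a and Jchain have an r of 0.89, and Cd4 is near 0 with both of these.

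Of all tested genes other than the 3 themselves, the highest r with the mean log2 CPM of Cd3d, Cd3e and Cd3g over 9 libraries was that of Ms4a4b (0.967), a surface gene of T cells, followed by Trbc2 (0.944), a constant region of the T cell receptor beta chain. Then came Mmp25 (0.932), Ifi208 (0.929) and Il2rb (0.929), which encodes a chain of the receptors for interleukins 2 and 15. Ms4a4b was at 8.36 CPM in 21 mo replicate 1 and at 9 CPM in 21 mo/O304 replicate 2, against 1.17 to 3.45 CPM in the other libraries. Trbc2 was at 6.62 and 7.51 CPM in that pair, against 2.03 to 3.85 CPM elsewhere.

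The genes most alike to the B cell genes and to Jchain over the kidneys are given in the same way. With the mean log2 CPM of Cd79a and Ms4a1, the 5 highest were the light chain variable genes Igkv8-19 (0.969) and Igkv1-110 (0.956), the granule gene Prg2 (0.968), which is best known from eosinophils, Mzb1 (0.948), a chaperone of antibody assembly, and Pou2af1 (0.947), a B lineage coactivator. With Jchain they were Pou2af1 (0.969), the kappa light chain constant region Igkc (0.95), Gpr157 (0.946), Mzb1 (0.942) and Igkv14-111 (0.941). Mzb1 was at 6.69, 3.82 and 6.05 CPM in 18 mo, 2.94, 1.99 and 17.7 CPM in 21 mo and 5.06, 17 and 15.3 CPM in 21 mo/O304. The 3 libraries at 15.3 CPM or more were those with Jchain at 541 CPM or more. Pou2af1 was at 11.7, 9.65 and 5.22 CPM in those 3 libraries (21 mo replicate 3, then 21 mo/O304 replicates 2 and 3) and at 0.852 to 2.77 CPM in the other 6.

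Antibody genes shared the pattern of Jchain in part. Igkc was at 498, 279 and 458 CPM in 18 mo, at 318, 243 and 2440 CPM in 21 mo and at 632, 1700 and 1080 CPM in 21 mo/O304, with a ratio of its counts to those of Jchain between 1.99 and 4.02 in all 9 libraries. Ighm, the heavy chain of IgM, was at 29, 14.5 and 17.7 CPM, at 195, 25 and 1450 CPM and at 40.2, 155 and 66.3 CPM. It was thus highest in 21 mo replicate 3 by a wide margin, and second in 21 mo replicate 1, where Jchain was at its lowest. Igha, the heavy chain of IgA, named after its values were seen, was at 470, 332 and 655 CPM, at 138, 248 and 760 CPM and at 583, 1680 and 1130 CPM, so that 21 mo replicate 1 was its lowest library and 21 mo/O304 replicate 2 its highest.

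Of 12 immunoglobulin constant region genes, 11 were tested and 0 had an edgeR adjusted p under 0.05 in any comparison. At an unadjusted p under 0.05, 2 were higher in 21 mo than in 18 mo, 1 was higher and 1 lower in 21 mo/O304 than in 21 mo, and 2 were higher in 21 mo/O304 than in 18 mo, where all genes gave 26.1%, 20.7% and 9.66%. The smallest p-values were those of Ighm, Ighg1 and Iglc2. The log2 fold change of Ighm was 4.77 for 21 mo against 18 mo (SE 1.28, edgeR adjusted p = 0.0827) and −2.68 for 21 mo/O304 against 21 mo (SE 1.16, edgeR adjusted p = 0.235), and in both comparisons the groups overlapped. Ighg1, of IgG1, was at 0.37 to 6.01 CPM in 18 mo and at 23.6 to 40.9 CPM in 21 mo/O304, without overlap (log2 fold change 3.26, edgeR adjusted p = 0.39). In that comparison 26.5% of all genes did not overlap. In 21 mo Ighg1 was at 17.9, 5.91 and 91 CPM (log2 fold change against 18 mo 3.54, edgeR adjusted p = 0.0933). For 21 mo/O304 against 21 mo its log2 fold change was −0.28 (edgeR adjusted p = 0.872). Immunoglobulin genes have close copies, and how the authors counted reads with several matches is not stated, so the split between them is uncertain.

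The other plasma cell genes gave no call after adjustment either. All 11 listed were tested, and at an unadjusted p under 0.05 3 were higher in 21 mo than in 18 mo, 1 was lower in 21 mo/O304 than in 21 mo and 4 were higher in 21 mo/O304 than in 18 mo, beside 26.1%, 20.7% and 9.66% of all genes in either direction. Xbp1, a transcription factor of secretory cells that kidney cells also use, was at 135 to 170 CPM in 18 mo, 196 to 251 CPM in 21 mo and 215 to 368 CPM in 21 mo/O304. Its libraries did not overlap between 18 mo and either other group, with a log2 fold change of 0.53 (edgeR adjusted p = 0.167) and 0.83 (edgeR adjusted p = 0.337). In these comparisons 28.8% and 26.5% of all genes did not overlap. Irf4, which drives plasma cell maturation, was at 0.805 to 1.81 CPM in 18 mo and at 2.33 to 4.77 CPM in 21 mo/O304, and reached 9.16 CPM in 21 mo replicate 3. Tnfrsf17, the BCMA receptor of plasma cells, was at 0.113 to 0.124 CPM in 18 mo and at 0.134, 0.227 and 0.55 CPM in 21 mo. In 21 mo/O304 it was at 0.536 to 0.698 CPM, overlapping with 21 mo. No fold is given because the 18 mo libraries were at 2 counts each. Sdc1, named after its values were seen, was the gene lower in 21 mo/O304 than in 21 mo. Its log2 fold change there was −2.001 (SE 0.66, edgeR adjusted p = 0.182). Sdc1 was at 16.9 to 23.4 CPM in 18 mo and at 13.2, 38 and 133 CPM in 21 mo. In 21 mo/O304 it was at 14.1 to 16.6 CPM, below all libraries of 18 mo and within the range of 21 mo. Sdc1 and Jchain were both high in 21 mo replicate 3, at 133 and 608 CPM. In 21 mo/O304 replicates 2 and 3 Sdc1 was at 14.1 and 15.3 CPM, where Jchain was at 670 and 541 CPM. Whether plasma cells or other kidney cells made Sdc1 was not tested.

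Of the 18 further B cell genes listed, 10 passed the filter, and Blk and Pax5 were among the 8 that did not. At an unadjusted p under 0.05, 3 were higher in 21 mo than in 18 mo, 1 was lower in 21 mo/O304 than in 21 mo and 1 was higher in 21 mo/O304 than in 18 mo (26.1%, 20.7% and 9.66% of all genes), and 0 passed after adjustment in edgeR. Btk, a kinase of B cells and of myeloid cells, was at 0.616 to 1.92 CPM in 18 mo and 2.21 to 5.31 CPM in 21 mo (log2 fold change 1.29, edgeR adjusted p = 0.156). Cd22, an inhibitory receptor of B cells, was at 0.186 to 0.566 CPM in 18 mo, and in 21 mo it was at 0.803, 0.511 and 3.53 CPM. Blnk, an adaptor of the B cell receptor, was at 10.7 to 15 CPM in 18 mo and at 10.6, 24.3 and 32.1 CPM in 21 mo. In 21 mo replicate 2, where Blnk was at 24.3 CPM, Cd79a was at its lowest, at 0.398 CPM. Cd79b, the partner of Cd79a and named after its values were seen, was at 2.03 to 2.54 CPM in 18 mo, at 2.41, 3.41 and 10.1 CPM in 21 mo and at 3.02, 5.66 and 2.61 CPM in 21 mo/O304. Cd79b thus peaked in 21 mo replicate 3, and its log2 fold change of 21 mo/O304 against 21 mo was −0.50 (SE 0.53, edgeR adjusted p = 0.582), where that of Cd79a was 1.77.

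T cell receptor and signalling genes gave 0 calls after adjustment in edgeR among the 20 of 22 tested. At an unadjusted p under 0.05, 4 were higher in 21 mo than in 18 mo, 1 was higher and 1 lower in 21 mo/O304 than in 21 mo, and 3 were higher in 21 mo/O304 than in 18 mo, against a background of 26.1%, 20.7% and 9.66% of all genes. Lcp2, an adaptor used by T cells and by myeloid cells, was at 2.17 to 3.22 CPM in 18 mo, 7.29 to 11.5 CPM in 21 mo and 4.01 to 8.05 CPM in 21 mo/O304. Its 18 mo libraries were below all others, with a log2 fold change of 1.75 for 21 mo against 18 mo (SE 0.317, edgeR adjusted p = 0.0626). Of all genes, 28.8% did not overlap between 21 mo and 18 mo and 26.5% between 21 mo/O304 and 18 mo. Bcl11b, a transcription factor of T cells that epithelia also use, was at 10 to 16.6 CPM in 21 mo/O304 against 2.34 to 6.09 CPM in 21 mo (log2 fold change 1.48, edgeR adjusted p = 0.175) and 5.57 to 8.69 CPM in 18 mo. Il7r, a survival receptor of T cells, was at 0.867 to 1.36 CPM in 18 mo and at 5.08, 1.25 and 4.95 CPM in 21 mo.

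Of 11 genes of T cell states, 9 were tested, and 0 had even an unadjusted p under 0.05 in edgeR. The shares of all genes at that level were 26.1%, 20.7% and 9.66% in the 3 comparisons. Foxp3, of regulatory T cells, did not pass the filter. Icos, a costimulatory receptor, was at 0.185 to 0.679 CPM in 18 mo and at 0.852 to 1.74 CPM in 21 mo without overlap (log2 fold change 1.49, unadjusted p = 0.0577, edgeR adjusted p = 0.206). In that comparison 28.8% of all genes did not overlap. Tnfrsf4 (OX40) was at 0.123 to 1.28 CPM and Cd69, an early activation marker, at 0.434 to 2.09 CPM over all libraries.

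Of 16 cytotoxic and natural killer cell genes, 13 were tested, with 1 higher in 21 mo than in 18 mo and 2 higher in 21 mo/O304 than in 18 mo at an unadjusted p under 0.05 (26.1% and 9.66% of all genes), and 0 after adjustment in edgeR. Ccl5, a chemokine of activated T and natural killer cells, was at 3.65 to 5.15 CPM in 18 mo, 7.56 to 9.5 CPM in 21 mo and 4.54, 21.2 and 7.7 CPM in 21 mo/O304. Fasl, the death ligand, was at 0.248 to 0.37 CPM in 18 mo, below all 6 other libraries, which were at 0.573 to 2.03 CPM. Its 18 mo counts were 4 to 6. The edgeR adjusted p was 0.178 for 21 mo and 0.403 for 21 mo/O304, each against 18 mo. In these comparisons 28.8% and 26.5% of all genes did not overlap. Gzmk, a granzyme, was at 3.41 CPM in 21 mo replicate 1 and 2.86 CPM in 21 mo/O304 replicate 2, against 0.124 to 1.65 CPM in the other 7. Ccl5 and Fasl were both highest in 21 mo/O304 replicate 2, the library highest in Nkg7 and Cd8a. The summed level of the 16 genes was 35.8 CPM in 21 mo replicate 1 and 47.4 CPM in 21 mo/O304 replicate 2, against 9.85 to 21.1 CPM in the other 7.

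Of the 7 tested genes that organize lymphoid tissue, 2 were highest in 21 mo replicate 3 (Cxcl13 and Tnfsf13b). Cxcl13, the chemokine that draws B cells into follicles, was at 108 CPM in 21 mo replicate 3 and at 0.308 to 2.42 CPM in the other 8. Tnfsf13b, which encodes the B cell survival factor BAFF, was at 6.76, 7.5 and 20.2 CPM in 21 mo, above the 2.16 to 4.41 CPM of 18 mo and the 3.57 to 5.07 CPM of 21 mo/O304. Its log2 fold change was 1.71 for 21 mo against 18 mo (SE 0.46, edgeR adjusted p = 0.0832) and −1.44 for 21 mo/O304 against 21 mo (SE 0.455, edgeR adjusted p = 0.18). In these comparisons 28.8% and 21.3% of all genes did not overlap. Ccr7, a homing receptor of T cells and dendritic cells, was at 0.227 to 1.34 CPM in 21 mo and 1.86 to 3.93 CPM in 21 mo/O304 without overlap (log2 fold change 1.57, edgeR adjusted p = 0.231). In that comparison 21.3% of all genes did not overlap. Ccr7 and Ltb, a lymphotoxin subunit named after its values were seen, were highest in 21 mo/O304 replicate 2, and Cr2, a receptor of B cells and follicular dendritic cells named likewise, was at its lowest in 21 mo replicate 3, at 0.321 CPM. Of the 12 genes listed 7 were tested, and 0 passed after adjustment in edgeR, with 2, 1 and 0 higher and 0, 2 and 0 lower at an unadjusted p under 0.05 in the 3 comparisons (26.1%, 20.7% and 9.66% of all genes in either direction).

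General leukocyte and myeloid genes were counted beside the 9 genes. All 7 pan-leukocyte genes were higher in 21 mo than in 18 mo at an unadjusted p under 0.05, beside 26.1% of all genes, with 0 after adjustment in edgeR. Ptprc (CD45) was at 13.6 to 19.9 CPM in 18 mo, 29.8 to 42.4 CPM in 21 mo and 22.6 to 41.7 CPM in 21 mo/O304 (log2 fold change 1.21 for 21 mo against 18 mo, edgeR adjusted p = 0.0631). Of 12 macrophage markers, 10 were higher in 21 mo than in 18 mo and 9 lower in 21 mo/O304 than in 21 mo at that level, and of 6 tested neutrophil markers 6 were higher and 4 lower. The shares of all genes in these 2 comparisons were 26.1% and 20.7% in either direction, and 0 markers of either list passed after adjustment in edgeR. Over these lists the groups were ordered as 21 mo, 21 mo/O304 and 18 mo in their summed level for macrophages, at 515 to 1700, 415 to 436 and 263 to 373 CPM without overlap. For none of the 9 genes were the 3 groups separated in that order. Summed erythroid markers, a measure of blood left in the tissue, were at 4.08 to 233 CPM except for 882 CPM in 21 mo replicate 1, a library high in the CD3 genes. They were at 153 CPM in 21 mo/O304 replicate 2, the other library high in the CD3 genes. In 18 mo replicates 1 and 3 and 21 mo/O304 replicate 3 they were higher, at 233, 167 and 225 CPM. The CD3 sums of those libraries were 5.57, 5.71 and 6.81 CPM. The part of the erythroid markers in the CD3 levels was not tested.

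Per length of the gene, in the deposited FPKM values, Jchain stood above the T and B cell genes, which ranged from the middle to the low end of the tested genes. The mean over 9 libraries was 114 FPKM for Jchain (range 32.8 to 259), above 97.1% of the tested genes, and 4.17 FPKM for Nkg7 (1.36 to 11.2), above 51.6%. Below these came Cd3d at 1.73 (above 32% of the tested genes), Cd79a at 1.55 (29.9%), Cd3g at 0.906, Cd8a at 0.755, Cd4 at 0.502, Cd3e at 0.251 (5.95%) and Ms4a1 at 0.145 FPKM (2.56%). Jchain was above Nkg7, Nkg7 above Cd3d, and Cd4 above Cd3e in all 9 libraries. The neighbours Cd3d and Cd79a were not separated, with Cd3d above in 5 of 9 libraries, and Cd3g was above Cd8a in 6 of 9. Between Cd79a and Cd3g, Cd8a and Cd4, and Cd3e and Ms4a1, the order held in 7 of 9 each.

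**Figure D5:**
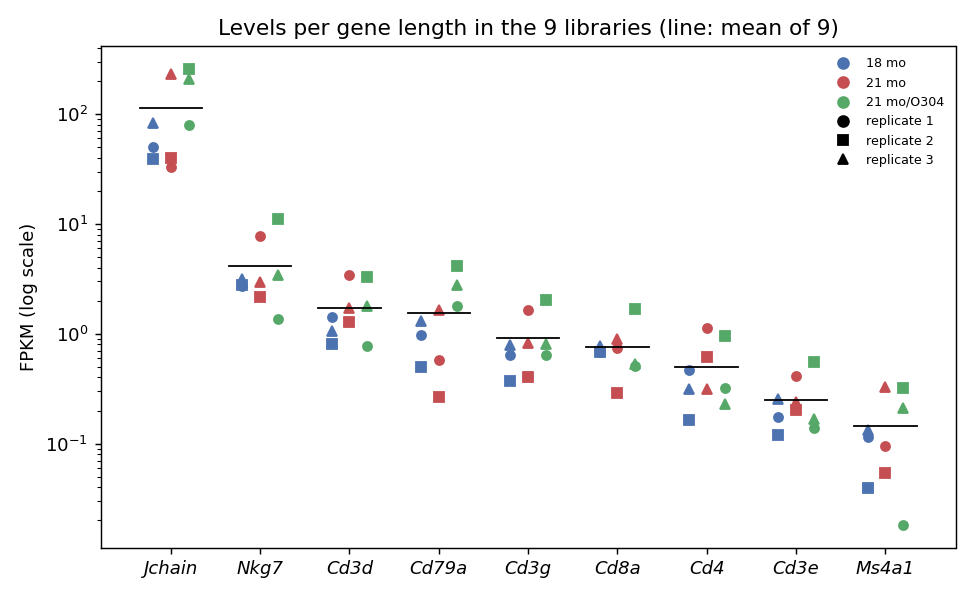
FPKM (y axis, log scale) of the 9 genes (x axis, ordered by their mean over 9 libraries, shown as a line) with 1 symbol per library, coloured by group. Jchain lies above 30 FPKM in every library, and Ms4a1 spreads from 0.0182 to 0.328 FPKM.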

How the data were processed

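The authors sequenced kidney RNA in paired-end reads, with 1 library for each of 9 mice. Per the labels, reads were aligned with HISAT2 2.0.5 and counted with featureCounts 1.5.0-p3. Strandedness and the treatment of reads with several matches are not given in the sources used here. The deposited counts per gene are raw, and the authors derived the FPKM beside them from count and gene length. Coordinates are those of the deposited table, and all 9 genes overlapped the gene of the same symbol in RefSeq GRCm38.p6. The authors' own columns of fold changes and p-values were not used.

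Genes passing filterByExpr (minimum count 10, minimum total 15) were normalized by TMM and tested with edgeR's quasi-likelihood test on all 9 libraries with 3 group means (6 residual degrees of freedom), two-sided, with Benjamini-Hochberg adjustment over 15902 genes. SE is the log2 fold change divided by the root of the F statistic, and intervals use the test's degrees of freedom. The log2 CPM for correlations used a prior count of 2. DESeq2, limma voom with sample quality weights and limma on log2(FPKM + 1) and log2(FPKM + 0.1) were among the alternatives. The procedures were run on simulated counts in which 200 genes changed 4-fold in 1 comparison. edgeR, DESeq2 and limma voom with sample quality weights recovered 71%, 82% and 68% of these genes. Of their calls, 4.05%, 26.8% and 3.55% were false. The simulation gave all groups the same spread per gene, unlike these data, so it cannot give the error rates here.

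The genes and lists were chosen with earlier results of these data known. All 9 genes are named, with the up to 3 smallest p-values of each other list of T cell, cytotoxic, B cell, plasma cell, immunoglobulin and lymphoid organization genes, and the 5 genes most correlated with the CD3 genes, with Cd79a and Ms4a1 and with Jchain. The edgeR p-values rest on 1 estimate of spread per gene, shared by the 3 groups of 3 mice. The 21 mo libraries had the widest spread (biological coefficient of variation 44% against 18% and 20.6%). They also enter the estimate used for 21 mo/O304 against 18 mo. In the 6 compared libraries alone, edgeR called 22 of 15308 genes in that comparison.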

Additional observations from a re-analysis of the deposited data

How the results depend on the processing

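Under limma voom with sample quality weights, 2 of the 9 genes had an adjusted p under 0.05 for 21 mo against 18 mo (Cd8a at −1.26 and Cd79a at −1.74) and 4 for 21 mo/O304 against 21 mo (Cd3g at 1.31, Cd8a at 1.42, Cd79a at 3.23 and Jchain at 2.03), with 3, 4 and 2 genes at an unadjusted p under 0.05 in the 3 comparisons. The same fit called 52.9% and 41.1% of all genes in the first 2 comparisons. That fit weighted 21 mo replicates 1, 2 and 3 at 0.223, 9.11 and 0.132, so that the group was nearly 1 library. It reversed Cd3g (−0.557), Nkg7 (−0.405), Ms4a1 (−0.734) and Jchain (−0.597) for 21 mo against 18 mo, and Cd3d (0.377) for 21 mo/O304 against 21 mo. Every other alternative gave 0 of the 9 with an adjusted p under 0.05, namely DESeq2, upper-quartile and DESeq2 scaling in edgeR, both other filters, the 6 compared libraries alone, the replicate block, limma on FPKM and each left-out library.

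At an unadjusted p under 0.05 the count for 21 mo/O304 against 21 mo fell to 0 with at least 10 counts in every library, a filter that removes Cd79a, and ranged from 0 to 2 without each library in turn. For 21 mo/O304 against 18 mo it was 2 with every gene of at least 1 count, 2 in the 6 compared libraries and 0 under that stricter filter, and it ranged from 0 to 3 without each library. With the replicate number as a block it was 2. Replicate numbers do not pair the mice (correlations of deviations between −0.13 and 0.175), and the block changed no adjusted call. Cd3e for 21 mo/O304 against 21 mo turned to −0.00126 with every gene of at least 1 count and to −0.0656 with the replicate block.

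Leaving out each library in turn gave log2 fold changes for 21 mo against 18 mo from −0.483 to 0.201 for Cd8a, −0.153 to 0.861 for Nkg7, −1.17 to 0.252 for Cd79a, −0.407 to 1.14 for Ms4a1 and −0.685 to 1.27 for Jchain. For 21 mo/O304 against 21 mo they ran from −0.75 to 0.368 for Cd3d, −0.905 to 0.357 for Cd3e, −0.414 to 0.894 for Cd3g, −1.33 to 0.0947 for Cd4, −0.332 to 0.825 for Cd8a, −0.851 to 1.04 for Nkg7 and −0.532 to 1.3 for Ms4a1. For 21 mo/O304 against 18 mo they ran from −0.26 to 0.972 for Cd3e, −0.19 to 1.06 for Cd4, −0.447 to 0.64 for Cd8a and −0.269 to 1.34 for Nkg7, each turning without 21 mo/O304 replicate 2. Over all genes the number called moved widely for 21 mo against 18 mo, from 3 in edgeR to 2059 in DESeq2, 4186 in edgeR without 21 mo replicate 1 and 8409 in limma voom with sample quality weights, and for 21 mo/O304 against 21 mo from 0 to 947, 3808 and 6528, and the cause was not tested.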
